A study of Homo sapiens with 10 samples.

Results

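The enzymes that break down tryptophan along the kynurenine pathway were followed in THP-1 macrophages treated with punicalagin, myricetin or quercetin. The set was 8 genes, namely TDO2, IDO1, AFMID, KMO, KYNU, HAAO, ACMSD and QPRT, out of 21214 transcript clusters that carry a gene symbol. They were chosen by their place in the pathway, and the difference of TDO2 between punicalagin and DMSO was already known when the set was drawn up. Each of the 8 symbols belonged to exactly 1 transcript cluster, so the highest mean, which was to decide between several, decided nothing.

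THP-1 cells come from a human monocytic leukaemia and become macrophage-like when the phorbol ester PMA is added. All cells, the controls included, received PMA for 24 h and were then kept for 24 h with DMSO, the solvent, with 10 µM punicalagin, an ellagitannin of pomegranate, or with myricetin or quercetin, for which the sources used here give no dose. DMSO and punicalagin were run on passages 6, 7 and 8 (3 arrays each), and myricetin and quercetin on passages 7 and 8 (2 arrays each). The values are log2 intensities of Affymetrix Human Gene 1.0 ST arrays, so that a difference of 1 is a factor of 2, and intensities of different genes cannot be compared because each has its own probes. A difference was called when its limma p, adjusted by Benjamini-Hochberg over the 21214 clusters, was under 0.05. The passages are cultures of a single cell line, and the p-values measure the spread between these cultures.

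Tryptophan is opened to N-formylkynurenine by TDO2, best known from liver, or by IDO1, which interferon-γ induces in macrophages. AFMID then releases kynurenine. KMO turns kynurenine into 3-hydroxykynurenine, KYNU cleaves it to 3-hydroxyanthranilic acid, and HAAO opens the ring of the latter. The product either closes to quinolinic acid, which QPRT feeds into NAD+ synthesis, or is drained away by ACMSD. Kynurenine itself can leave the cell through amino acid transporters and bind the aryl hydrocarbon receptor AHR.

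All 7 measured monocyte and macrophage markers lay above the array median in their mean, and the mean of this list was 9.31 to 10.5 on every array, against array medians of 5.14 to 5.25. The lists of hepatocytes, fibroblasts, T or NK cells and B cells stayed between 3.72 and 4.70. With quercetin the macrophage marker CD68 rose by 1.13 (limma adjusted p = 0.0103) and the fibroblast marker PDGFRA by 1.23 (limma adjusted p = 0.00446), and no other listed marker was called in a comparison with DMSO. With punicalagin 4 of the 7 macrophage markers were higher and 1 lower at an unadjusted p under 0.05, with a median change of 0.67 against -0.05 over all clusters. Among them CD68 differed by 0.99 (limma adjusted p = 0.0513) and CD14 by 1.73 (limma adjusted p = 0.161). How many of all clusters pass at that unadjusted p was not counted, here or for the lists below. Both calls with quercetin were lost when 1 of the quercetin arrays was left out (limma adjusted p = 0.151 for CD68 and 0.101 for PDGFRA without that of passage 8). The part of these in the results below was not tested. One of the DMSO arrays, that of passage 6, stood apart: its mean correlation with the others was 0.969, against 0.977 to 0.983 for the remaining arrays. On this array 15 of 16 NF-κB inflammatory genes and 6 of the 8 enzymes were higher than the mean of the other DMSO arrays, by 1.65 for TDO2 and 0.61 for KMO. Its part in the results was not tested beyond leaving it out.

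RefSeq promoter sequences (GRCh38.p14) matched 6 of the 8 enzymes, all but IDO1 and ACMSD. The 250 bases before the start are shown for TDO2, where the largest differences lay, and for KMO and KYNU, the enzymes that act on kynurenine. They stand at chr4:155903446-155903695, chr1:241532128-241532377 and chr2:142877414-142877663, all on the plus strand, and capitals mark matches on either strand to TATAAA (the TATA box), GCGTG (the core of the AHR response element) or AGGTCA (a half-site of nuclear receptors).
TDO2 promoter: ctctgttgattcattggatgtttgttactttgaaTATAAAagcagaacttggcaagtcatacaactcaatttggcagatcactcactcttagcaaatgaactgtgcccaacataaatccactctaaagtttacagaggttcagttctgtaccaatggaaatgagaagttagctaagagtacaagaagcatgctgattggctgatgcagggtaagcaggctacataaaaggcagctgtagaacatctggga
KMO promoter: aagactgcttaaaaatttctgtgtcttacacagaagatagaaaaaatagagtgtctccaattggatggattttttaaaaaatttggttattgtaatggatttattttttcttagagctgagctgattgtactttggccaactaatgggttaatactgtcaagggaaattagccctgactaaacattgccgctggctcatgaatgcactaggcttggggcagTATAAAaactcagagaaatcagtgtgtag
KYNU promoter: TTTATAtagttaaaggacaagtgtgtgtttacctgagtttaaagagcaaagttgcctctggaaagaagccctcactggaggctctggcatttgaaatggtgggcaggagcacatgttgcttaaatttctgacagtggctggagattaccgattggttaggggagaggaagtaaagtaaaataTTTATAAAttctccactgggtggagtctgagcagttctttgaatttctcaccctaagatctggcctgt
Among these the capitals are all TATAAA or its complement TTTATA. In KMO the match lies 29 to 24 bases before the start. In KYNU 1 match covers bases 66 to 61, a match on the opposite strand overlaps it at bases 68 to 63, and another opposite match lies at 250 to 245. In TDO2 it lies at 216 to 211, far from the start. Such a match was found in 4 of the 6 matched enzymes and in 10.7% of 35116 promoters of the same length. AFMID alone of the 6 held GCGTG or AGGTCA, which stood in 32.2% and 12.1% of all promoters. These are matches of letters in a short window.

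TDO2 differed most among the 8 enzymes in each comparison with DMSO. Its log2 intensity was 5.62, 4.17 and 3.77 on the DMSO arrays of passages 6, 7 and 8. On the punicalagin arrays of the same passages it was 7.71, 8.23 and 6.93. Myricetin gave 6.98 and 7.51 and quercetin 9.23 and 9.18 in passages 7 and 8. Every treated array lay above every DMSO array, both quercetin arrays lay above all others, and the punicalagin and myricetin arrays overlapped. Groups that did not overlap were found in 17.5%, 23.7% and 31.8% of all clusters for punicalagin, myricetin and quercetin against DMSO. Ordered by their means, the groups ran from 4.52 ± 0.97 (SD, n = 3) with DMSO through 7.24 ± 0.37 (n = 2) with myricetin and 7.62 ± 0.66 (n = 3) with punicalagin to 9.20 ± 0.03 (n = 2) with quercetin. Within its array, TDO2 stood between the 26.9th percentile of all 33297 clusters, in a DMSO array, and the 94.9th, with quercetin.

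**Figure D1:**
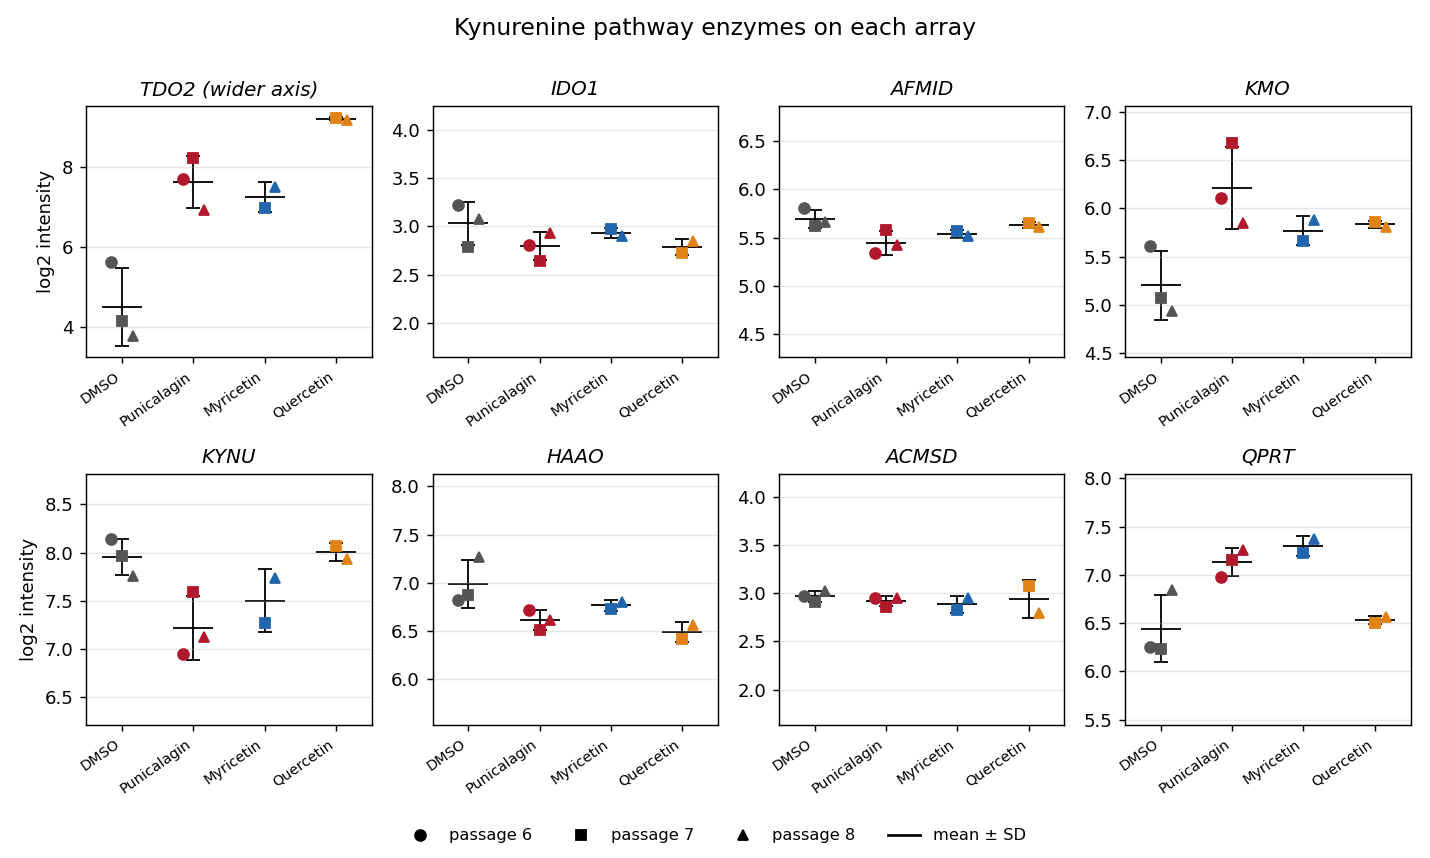
Log2 intensity of the 8 enzymes on each of the 10 arrays, by treatment; points are arrays, their shape gives the passage, and horizontal lines with bars are the mean ± SD. TDO2 has a wider axis than the other panels, which all span the same range. TDO2 lies between 3.77 and 5.62 with DMSO and between 6.93 and 9.23 with the compounds, while IDO1 and ACMSD stay near 3 everywhere.

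With punicalagin the mean of TDO2 was 3.10 higher on the log2 scale, which is 8.60-fold and ranks 6th among the 21214 clusters by rise. This difference served to choose the set and is given as a description. It was 2.09, 4.07 and 3.16 within passages 6, 7 and 8, smallest where the DMSO array was highest. Myricetin raised TDO2 by 2.73 (SE 0.48, 6.61-fold, 95% interval 3.21 to 13.6-fold, limma adjusted p = 0.0305), by 2.81 and 3.74 within passages 7 and 8. Quercetin raised it by 4.69 (SE 0.48, 25.7-fold, 12.5 to 53.1-fold, limma adjusted p = 0.000255), by 5.06 and 5.41 within passages, and only 2 clusters rose further. These comparisons share the DMSO arrays with that of punicalagin and are not independent of how the set was chosen. The myricetin call was lost without the DMSO array of passage 7 (limma adjusted p = 0.12) and without either myricetin array (0.249 and 0.435), where the remaining array is assumed to vary like the other groups. The quercetin call held whichever array was left out (limma adjusted p of 0.00688 at most). In a culture measured as a whole, more cells that hold a transcript and more transcript per cell cannot be told apart.

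Between the compounds, the differences of TDO2 did not pass the threshold. Punicalagin and quercetin differed by -1.58 (95% interval -2.62 to -0.54, limma adjusted p = 0.103) and myricetin and quercetin by -1.96 (-3.10 to -0.82, limma adjusted p = 0.0926), with the quercetin arrays higher in both cases. The first passed in 5 of 16 other settings and the second in 5 of 15. Myricetin and quercetin are flavonols, of which myricetin carries an additional hydroxyl group on its B ring. Since their doses are not given, it cannot be said that the arrays compare them at the same dose. Punicalagin and myricetin differed by 0.38 (-0.66 to 1.42, limma adjusted p = 0.88), an interval that leaves room for a difference of 2.68-fold. Groups that did not overlap were common, at 36.1% of all clusters for punicalagin and quercetin and 55.7% for myricetin and quercetin.

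IDO1, which catalyses the same step as TDO2, was dim throughout. Its log2 intensity was 3.23, 2.79 and 3.08 with DMSO, 2.81, 2.64 and 2.93 with punicalagin, 2.97 and 2.90 with myricetin and 2.73 and 2.85 with quercetin. It lay below the lower quartile of the array on all 10 arrays, and its differences from DMSO, -0.24, -0.10 and -0.24, were within the spread (limma adjusted p = 0.65, 0.954 and 0.566). The deposited table holds no detection calls, so whether IDO1 was above background is unknown. ACMSD, the enzyme that diverts the pathway from NAD+, ranged only from 2.80 to 3.07 and was likewise below the lower quartile on all 10 arrays, with limma adjusted p of 0.928 or more against DMSO. AFMID lay between 5.34 and 5.80 and differed from DMSO by -0.25, -0.15 and -0.07 with punicalagin, myricetin and quercetin, none past the threshold (limma adjusted p = 0.564, 0.866 and 0.9).

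KMO, at the branch towards 3-hydroxykynurenine, had the largest SD over the arrays after TDO2. It measured 5.61, 5.07 and 4.93 with DMSO and 6.11, 6.68 and 5.84 with punicalagin. With myricetin it was 5.66 and 5.88, and with quercetin 5.86 and 5.81. All treated arrays were above all DMSO arrays, although the DMSO array of passage 6, at 5.61, came close to the lowest myricetin array, at 5.66. Groups did not overlap in 17.5%, 23.7% and 31.8% of all clusters for punicalagin, myricetin and quercetin against DMSO. The differences were 1.00 with punicalagin (SE 0.25, 2.01-fold), 0.56 with myricetin and 0.63 with quercetin, with limma adjusted p = 0.087, 0.547 and 0.242. Without the DMSO array of passage 6 the first became 1.21 and the last 0.83, and both then passed (limma adjusted p = 0.0272 and 0.0442). A fit of punicalagin on all 10 arrays also called KMO, with adjusted p = 0.0238, and KYNU and QPRT beside it. Among the other settings with an adjusted p, KMO passed in only 5 of 17 with punicalagin and 2 of 16 with quercetin.

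KYNU, which cleaves kynurenine and its hydroxylated form, leaned the other way. Its log2 intensity was 8.14, 7.96 and 7.76 with DMSO and 6.95, 7.59 and 7.13 with punicalagin, all below the DMSO arrays. For punicalagin against DMSO, groups did not overlap in 17.5% of all clusters. Myricetin gave 7.27 and 7.73, quercetin 8.07 and 7.94 within the DMSO range. The differences from DMSO were -0.73 (SE 0.19), -0.45 and 0.05, with limma adjusted p = 0.111, 0.589 and 0.956. Punicalagin and quercetin differed by -0.78 (95% interval -1.24 to -0.32, limma adjusted p = 0.0663).

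QPRT, the enzyme that leads quinolinic acid into NAD+ synthesis, was higher with punicalagin and myricetin than with quercetin on every array. In these pairs, groups did not overlap in 36.1% and 55.7% of all clusters. QPRT measured 6.25, 6.23 and 6.84 with DMSO, 6.98, 7.16 and 7.26 with punicalagin, 7.23 and 7.37 with myricetin and 6.51 and 6.56 with quercetin. The differences from DMSO were 0.69, 0.86 and 0.09 (SE 0.19 each, limma adjusted p = 0.133, 0.0897 and 0.902). Myricetin exceeded quercetin by 0.77 (95% interval 0.31 to 1.22, limma adjusted p = 0.0962) and punicalagin exceeded it by 0.60 (0.18 to 1.01, limma adjusted p = 0.119), so neither passed here, while the first did in 5 of 15 other settings and the second in 2 of 16. HAAO lay between 6.82 and 7.27 with DMSO and between 6.42 and 6.81 on the treated arrays, all below DMSO. Against DMSO, groups did not overlap in 17.5% to 31.8% of all clusters, depending on the compound. The differences of HAAO were -0.37, -0.22 and -0.49 (limma adjusted p = 0.407, 0.817 and 0.137).

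**Figure D2:**
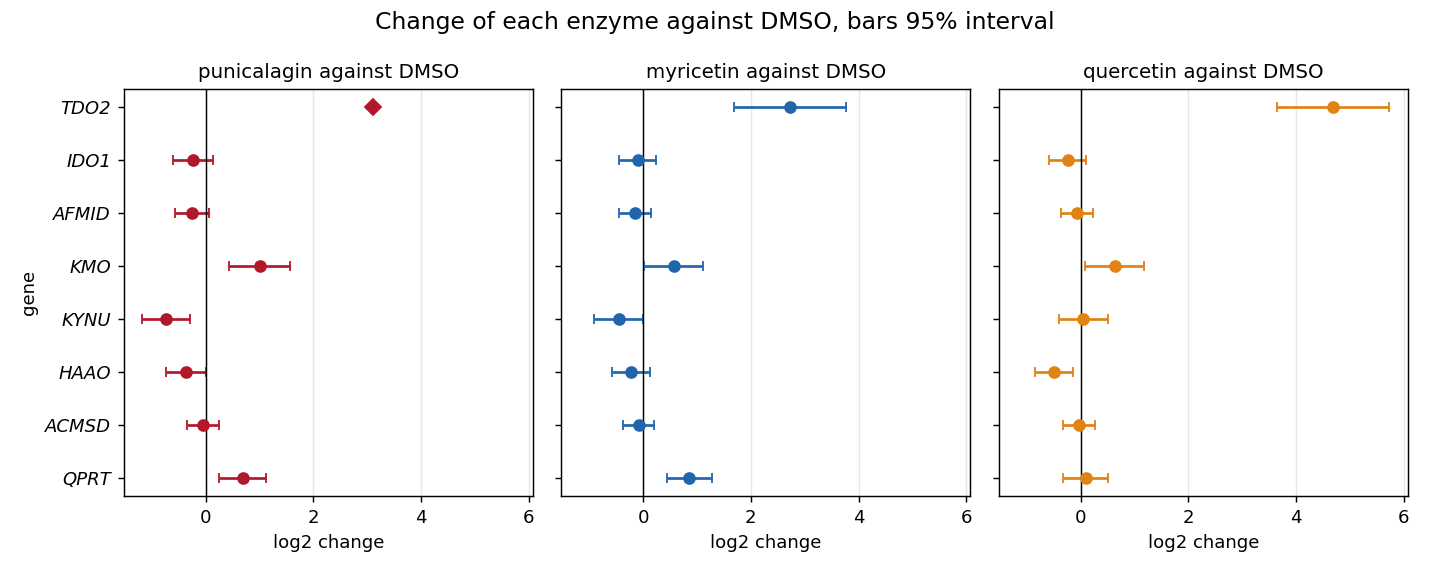
Log2 change of each enzyme against DMSO (horizontal axis) with punicalagin, myricetin and quercetin; points are limma estimates and bars their 95% intervals before adjustment. TDO2 with punicalagin, which served to choose the set, is a diamond without interval. TDO2 changes by 2.73 to 4.69, and the other 7 enzymes stay between -0.73 and 1.00.

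In all, 1 enzyme of 8, TDO2, passed the threshold with myricetin and with quercetin, where the share called among all clusters was 0.509% and 3.92%. With punicalagin, where 2.33% of all clusters were called and TDO2 is a description, none of the other 7 passed in the fit on 6 arrays. Fitted on all 10 arrays, as the other comparisons were, punicalagin gave 1014 calls over all clusters in place of 494, and KMO, KYNU and QPRT were among them. At an unadjusted p under 0.05, limma counted 3 enzymes higher, TDO2 included, and 2 lower with punicalagin, 3 and 0 with myricetin and 2 and 1 with quercetin. The share of all clusters at that p was not counted, so the shares given above are no background for these counts. The median change over the 8 enzymes was -0.14, -0.09 and 0.01 with punicalagin, myricetin and quercetin, beside -0.05, 0.00 and -0.04 over all clusters. Between the compounds, limma called none of the 8 in any pair, where 0.528% (punicalagin and myricetin), 3.91% (punicalagin and quercetin) and 1.7% (myricetin and quercetin) of all clusters were called. Unadjusted, 0, 3 and 3 enzymes had a p under 0.05 in these pairs. The methods' t-test with adjustment called 0 of all clusters in each comparison with DMSO and in both pairs with punicalagin, and 5 between myricetin and quercetin, so its count of 0 for the enzymes and for every list of genes is not particular to them.

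A list of amino acid transporters, drawn up for tryptophan and kynurenine, held calls with punicalagin and with quercetin. Whether each of its 9 genes carries tryptophan or kynurenine was not tested. Of these 9, 2 rose with punicalagin, 0 with myricetin (3 higher and 1 lower at unadjusted p under 0.05) and 2 with quercetin. Of all clusters, 2.33%, 0.509% and 3.92% were called with these compounds, also the background for the calls in the lists below. With punicalagin fitted on all 10 arrays, as the other compounds were, 4 passed, beside 1014 of all 21214 clusters. They were SLC7A5, SLC43A1, SLC3A2 and SLC7A8. SLC7A5, the catalytic chain of the transporter LAT1, was 7.71, 7.32 and 7.08 with DMSO and 10.3, 10.3 and 8.44 with punicalagin. It rose by 2.30 (SE 0.45, 4.93-fold, limma adjusted p = 0.0344), with the array of passage 8 well below the other punicalagin arrays. This call was lost when either of the DMSO arrays of passages 7 and 8, or either of the punicalagin arrays of passages 6 and 7, was left out (limma adjusted p = 0.0919 to 0.189). SLC3A2, its partner chain, differed by 1.10 (limma adjusted p = 0.0506).

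SLC43A1, the transporter LAT3, rose by 1.10 with punicalagin (limma adjusted p = 0.0168) and by 0.72 with quercetin (limma adjusted p = 0.0437). The call with punicalagin was lost without the DMSO array of passage 7 or the punicalagin array of passage 6 or 7 (limma adjusted p = 0.0729 to 0.0926). With quercetin its adjusted p passed in 4 of 16 other settings. SLC16A10, the aromatic amino acid transporter TAT1, was 4.44 to 4.49 with DMSO, 4.58 to 4.63 with punicalagin and 4.73 to 4.75 with myricetin, and reached 5.73 and 5.99 with quercetin. It rose by 1.40 with quercetin (SE 0.13, 2.63-fold, limma adjusted p = 0.000127). Its difference between quercetin and the other compounds also passed, at -1.25 for punicalagin minus quercetin (limma adjusted p = 0.000754) and -1.12 for myricetin minus quercetin (0.00291). Median changes over the 9 transporters were 0.15, 0.23 and 0.54 with punicalagin, myricetin and quercetin, against -0.05, 0.00 and -0.04 over all clusters.

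The list of AHR, its partner, its induced genes and GPR35, a receptor for kynurenic acid, held calls with quercetin. Of 8 measured genes of this list none passed with punicalagin or myricetin (4 and 2 at unadjusted p under 0.05), and 2 fell with quercetin. The induced genes CYP1A1, CYP1A2 and NQO1 were not called against DMSO, and CYP1A1 was dim (mean 3.66 with DMSO, 3.52 with quercetin). Median changes over the list were -0.22, -0.10 and -0.18 with punicalagin, myricetin and quercetin, against -0.05, 0.00 and -0.04 over all clusters. CYP1B1, a cytochrome P450 that AHR induces, was 9.01, 8.77 and 8.47 with DMSO, 8.75, 8.99 and 8.55 with punicalagin and 8.30 and 8.39 with myricetin. With quercetin it was 6.27 and 6.33, below all other arrays. It fell by 2.45 on the log2 scale (SE 0.18, limma adjusted p = 3.23e-05), and its level differed between punicalagin and quercetin by 2.46 (0.000109) and between myricetin and quercetin by 2.04 (0.000636). TIPARP, an ADP-ribosyltransferase that AHR induces and that represses it, was 8.29, 8.55 and 8.31 with DMSO and 6.59 and 6.73 with quercetin. It fell by 1.72 (SE 0.20, limma adjusted p = 0.000578), and the differences of 1.20 from punicalagin and 1.54 from myricetin passed as well (0.00787 and 0.00529). AHR itself differed by -0.66, -0.43 and -0.11 with punicalagin, myricetin and quercetin, none past the threshold (limma adjusted p = 0.245, 0.669 and 0.9). GPR35 differed by 0.62, 0.41 and 0.33 (limma adjusted p = 0.125, 0.525 and 0.438), and it passed with punicalagin when all 10 arrays were fitted.

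**Figure D3:**
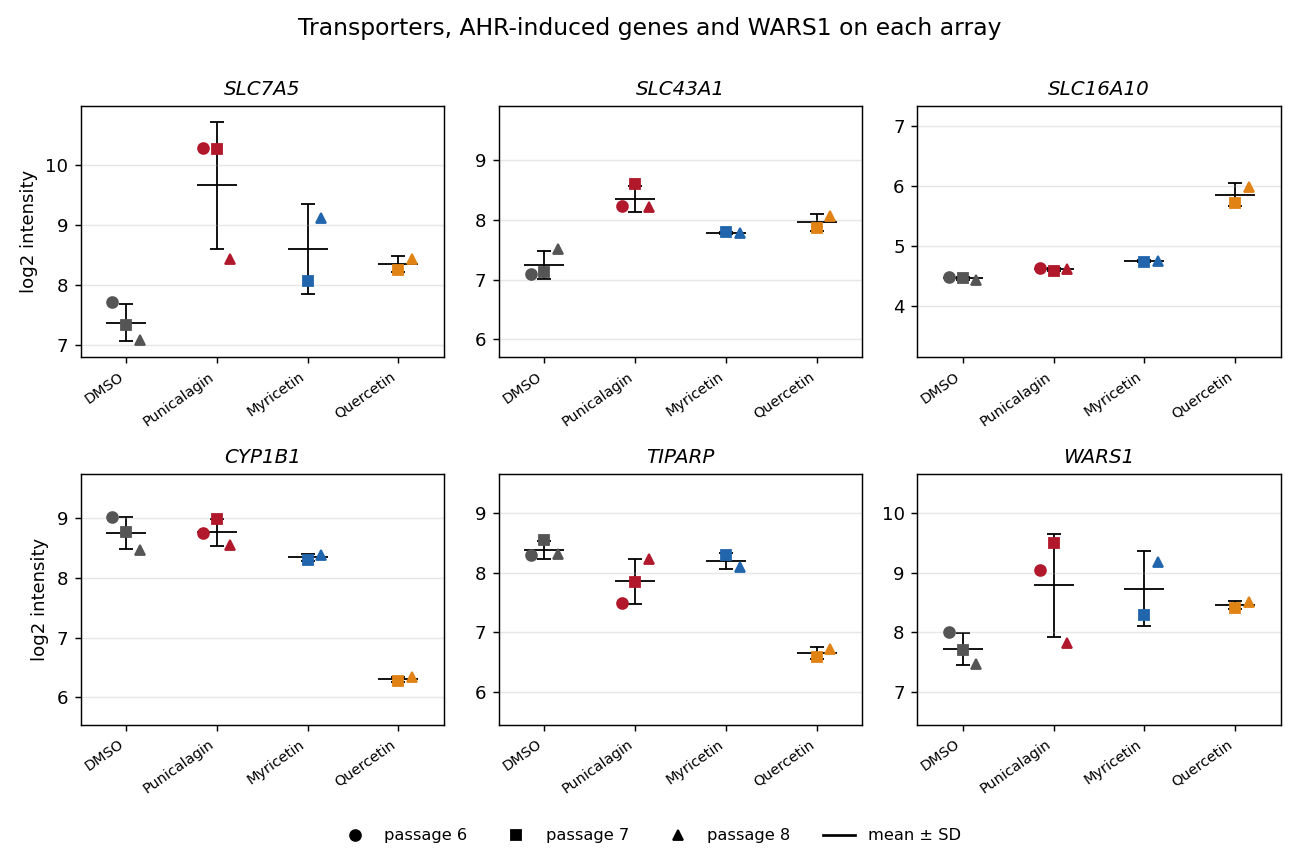
Log2 intensity on each array of 3 transporters (SLC7A5, SLC43A1, SLC16A10), CYP1B1 and TIPARP, which AHR induces, and WARS1, by treatment; points are arrays, shapes passages, and lines with bars the mean ± SD. All panels span the same range. CYP1B1 and TIPARP with quercetin, at 6.27 to 6.33 and 6.59 to 6.73, lie below all other arrays, and SLC16A10, at 5.73 and 5.99, above them.

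The other routes showed few calls. DHTKD1, which oxidises a keto acid further down the degradation of tryptophan and lysine, fell by 0.59 with quercetin (limma adjusted p = 0.0337) and was the 1 of 8 further kynurenine enzymes past the threshold in a comparison with DMSO. Its call was lost without either quercetin array or without the DMSO array of passage 7 or 8 (limma adjusted p = 0.0863 to 0.325). Of 8 measured genes that use tryptophan otherwise and 11 of NAD+ synthesis, none passed in a comparison with DMSO. At unadjusted p under 0.05 limma counted 1, 1 and 0 of the former and 0, 1 and 0 of the latter with punicalagin, myricetin and quercetin. WARS1, which loads tryptophan onto its tRNA, had the largest difference of the first list: it was 8.00, 7.70 and 7.47 with DMSO and 9.04, 9.50 and 7.82 with punicalagin, an overlap, and the mean differed by 1.06 (limma adjusted p = 0.253).

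Interferon-γ and glucocorticoids are textbook inducers of IDO1 and of hepatic TDO2. Of 10 measured interferon-γ genes, limma called none with punicalagin or myricetin (0 and 1 at unadjusted p under 0.05). With quercetin, IRF1, a transcription factor, fell by 0.67 and GBP2, a guanylate-binding protein, fell by 1.18 (limma adjusted p = 0.0309 and 0.0239). The chemokine CXCL10 rose by 0.96 (limma adjusted p = 0.00235). It was dim, with a mean of 3.27 with DMSO, below the lower quartile of each DMSO array (3.63 to 3.70), and 4.23 with quercetin. Called or not, 4 of the 10 were higher and 6 lower with quercetin, with a median change of -0.03. Of 8 measured glucocorticoid genes, limma called none with punicalagin or myricetin (1 and 1 at unadjusted p under 0.05). FKBP5, also on this list, had no cluster with its symbol alone and is not among the 8. The authors list it among the genes most lowered by punicalagin. With quercetin 2 of the 8 rose, the phosphatase DUSP1 by 1.66 and the kinase SGK1 by 0.89 (limma adjusted p = 0.015 and 0.00881). Called or not, 4 of the 8 were higher and 4 lower with quercetin, with a median change of -0.01. DUSP1 was also 1.21 higher on the DMSO array of passage 6 than on the other DMSO arrays. Of the 16 NF-κB inflammatory genes, TRAF1 and NFKBIA fell by 1.25 and 0.98 with punicalagin (limma adjusted p = 0.00827 and 0.022), and CXCL1 and CCL20 rose by 1.93 and 1.90 with quercetin (limma adjusted p = 0.000266 and 0.0449). With myricetin none of the 16 was called, 7 were lower at an unadjusted p under 0.05, and the median change was -0.31. With punicalagin 5 were lower at that p, with a median of -0.39, and with quercetin 4 were higher and 1 lower, with a median of 0.28. The DMSO array of passage 6, which enters all of these comparisons, was higher than the mean of the other DMSO arrays in 15 of the 16, and its part in them was not tested. Myricetin had no array of passage 6. Within passage 7 the changes of the 16 genes with myricetin ran from -1.38 (CXCL8) to 0.10 (IL6). Within passage 8 they ran from -0.57 (NFKBIA) to 0.81 (PTGS2).

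Many of these calls did not hold when an array was left out, although the changes themselves kept their direction. Without either quercetin array the calls of IRF1, GBP2, DUSP1, SGK1 and CCL20 were lost (limma adjusted p = 0.0983 to 0.326, where the remaining array is assumed to vary like the other groups), and so was that of CXCL10 without the quercetin array of passage 8 (0.0638). Leaving out the DMSO array of passage 7 ended those of IRF1, DUSP1, CCL20 and NFKBIA (0.0517 to 0.128), and leaving out that of passage 8 those of IRF1 and CCL20 (0.0777 and 0.12). Over all omissions the change of DUSP1 ran from 1.40 to 2.07, that of SGK1 from 0.74 to 0.96, that of CCL20 from 1.61 to 2.38 and that of GBP2 from -1.34 to -0.93. TRAF1 was lost without the punicalagin array of passage 6 (0.0599) and NFKBIA without that of passage 6 or 7 (0.126 and 0.108). CXCL1 kept its call whichever array was left out, as did SLC16A10, CYP1B1 and TIPARP with quercetin.

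Among 19459 clusters with a single symbol, the 8 whose values ran most like those of TDO2 over the 10 arrays were CHST15, IGFBP3, CYP19A1, PIM1, FN1, OLR1, MMP1 and BCAT1, with Pearson's r of 0.979 to 0.972. They include the aromatase CYP19A1, the oxidized LDL receptor OLR1, the collagenase MMP1, fibronectin (FN1) and BCAT1, a transaminase of branched-chain amino acids. MMP1 was 8.09, 6.82 and 5.89 with DMSO, 9.30, 9.63 and 9.40 with punicalagin, 9.07 and 8.68 with myricetin and 10.5 and 10.6 with quercetin. The 10 arrays share treatments and are not independent points, so no p is given. The genes most like KMO were others: CTSD (0.968), FCER2 (0.96), ENG, DAD1, HS6ST1, ITPRIP, MFNG and SIGLEC9. Of the enzymes, KMO had an r of 0.78 with TDO2 over the 10 arrays and HAAO one of -0.87, as a description of arrays that share their treatments.

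**Figure D4:**
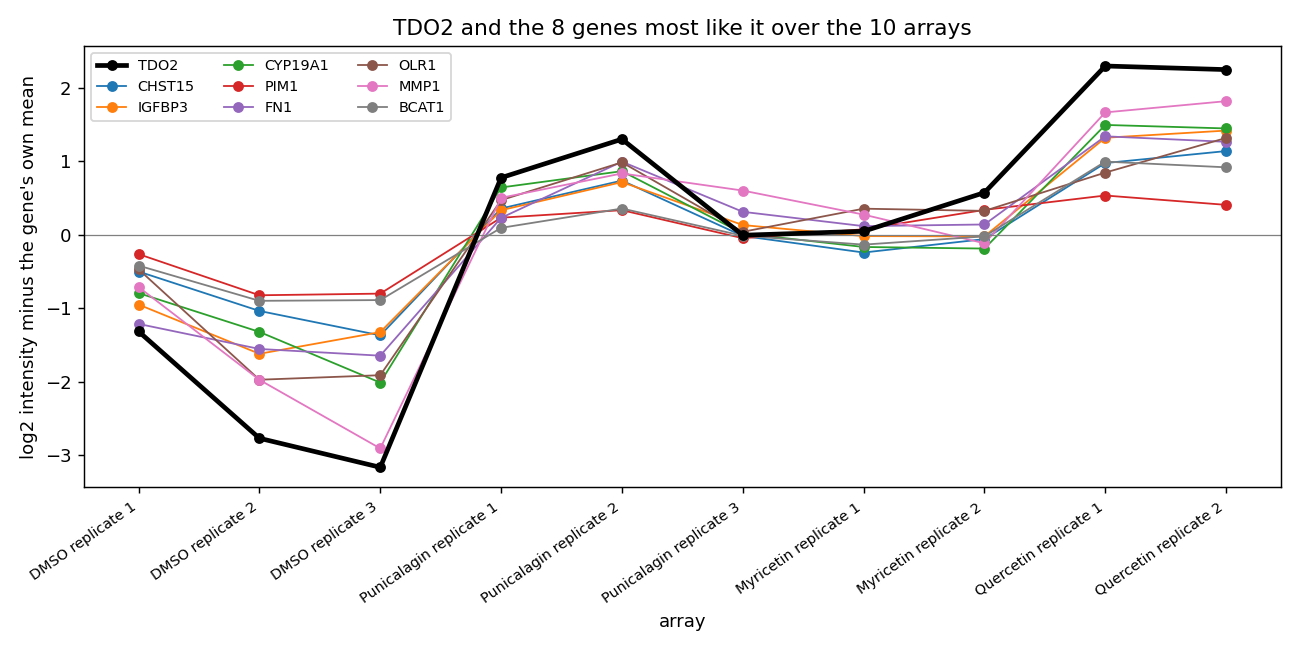
Log2 intensity minus the gene's own mean (vertical axis) on the 10 arrays (horizontal axis) for TDO2, thick line, and the 8 genes most like it; points are arrays and lines only join the points of a gene. All of these genes have their lowest group mean with DMSO and their highest with quercetin, as TDO2 does. They were picked for their likeness to TDO2 on these same arrays, so the shared order follows from the choice.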

How the data were processed

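RNA of 10 THP-1 cultures was measured on Affymetrix Human Gene 1.0 ST arrays. What was deposited is a table of log2 intensities, with 1 value per transcript cluster and array, made by the authors with RMA (background correction, quantile normalization, summary of probes). Partek 7.0, Affymetrix Expression Console and RMA are the tools in the submitters' processing notes. Whether all arrays were normalized together is not given in the sources used here, and no normalization was added. Of 33297 clusters, 19460 carried 1 symbol, 1754 several and 12083 none. The 21214 clusters with a symbol were tested without a filter, in R 4.3.3 with limma 3.58.1 (lmFit, eBayes, Benjamini-Hochberg). The fit of punicalagin against DMSO used these 6 arrays, and the other 5 comparisons used all 10 arrays. The fits were tested on simulated data. The number of arrays limits the precision, and no genome build is named for the probes.

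The enzymes, gene lists and tests were chosen with earlier results of these data known. Named are the 8 enzymes, per list up to 4 genes with the largest change past the threshold in a comparison with DMSO (up to 2 where none passed), and the 8 genes most like TDO2 and KMO. The report prints these in part. WARS1 stands for its list, and SLC3A2, the partner of SLC7A5, and AHR, GPR35 and SLC7A8 in further comparisons were named after their values were seen. Some listed genes, among them IL4I1, INMT, ASMT, AHRR, GBP1, BIRC3, FKBP5 and FCGR1A, had no cluster with their symbol alone. Alternatives were passage as a block, passages 7 and 8 alone, trend and robust estimation, array weights, all clusters, no dim clusters, a second quantile normalization, median centring, other arrays in the fit, the methods' t-test and leaving out each array. No table of protein sequences was used here.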

Additional observations from a re-analysis of the deposited data

How the results depend on the processing

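With 2 or 3 arrays a group, calls near the threshold were unstable. TDO2 stayed higher in every setting, by 2.73 to 3.65 with punicalagin, 2.35 to 3.28 with myricetin and 4.31 to 5.24 with quercetin. Its adjusted p passed in 10 of 16 settings with myricetin and in 15 of 16 with quercetin (0.304 by the methods' t-test with adjustment). No other cluster carried an enzyme's symbol, so that alternative gave no value.

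The number of enzymes past the threshold moved as follows. With punicalagin it was 1, namely TDO2, whose difference served to choose the set and is a description. The counts that follow include TDO2 where it passed. The count was 2 on passages 7 and 8 alone, with or without the block, 3 with array weights and 0 with all clusters tested. It was 4 with all 10 arrays. The methods' t-test gave 2 unadjusted with a 2-fold cut and 0 adjusted. With an array left out the count was 0 to 2. It was 0 without the DMSO array of passage 7 or the punicalagin array of passage 6 or 7. With myricetin, where it was 1, it was 2 with array weights, 0 with all clusters, 0 with the arrays of these groups only, 0 by the methods' t-test adjusted, and 0 to 2 when an array was left out. With quercetin, where it was 1, it was 3 with array weights, 0 by the methods' t-test adjusted, and 1 to 2 when an array was left out. Between punicalagin and quercetin, where it was 0, it was 1 on passages 7 and 8 alone, with or without the block. For this pair it was 3 with array weights, 1 with these groups only and 0 to 1 when an array was left out. By the methods' t-test, unadjusted with a 2-fold cut, it was 1. Between myricetin and quercetin, where it was 0, it was 2 on passages 7 and 8 alone, with or without the block. For this pair it was 2 with array weights, 2 with these groups only, and 1 by the methods' t-test unadjusted with a 2-fold cut. The cause was not tested, except that more clusters tested, or fewer arrays, follow from the settings themselves.

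With passage as a replicate block, 1 enzyme, TDO2, stayed past the threshold in each comparison with DMSO, as a description with punicalagin. The block took 2 enzymes past it between punicalagin and quercetin (TDO2, adjusted p = 0.032, and QPRT, 0.0424) and 2 between myricetin and quercetin (TDO2, 0.0397, and QPRT, 0.0391), and changed no other call of an enzyme. Of the transporters, it added SLC3A2 and SLC7A8 with punicalagin, for 4 in all, and with quercetin it added SLC7A8 and ended the call of SLC43A1 (adjusted p = 0.0757). Deviations from the group means correlated at -0.19 to 0.23 in the 13 pairs of arrays of the same passage, of which 2 exceeded 0.1. In the 24 other pairs they correlated at -0.35 to 0.27. In a group of 2 arrays the deviations are exact opposites, which forces mirrored correlations. These ranges therefore cannot decide whether the passage pairs the arrays.

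Over all clusters the calls numbered 494 with punicalagin (0 to 1014 over the settings), 108 with myricetin (0 to 533), 832 with quercetin (0 to 2539), 112 between punicalagin and myricetin (0 to 485), 830 between punicalagin and quercetin (0 to 2448) and 361 between myricetin and quercetin (5 to 2560). The transporters past the threshold numbered 0 to 4 with punicalagin and 0 to 3 with quercetin, and the AHR list 0 to 2 with quercetin, with 0 by the methods' t-test adjusted and 2 in the 16 other settings.

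Changes of sign occurred only near zero in enzymes that were not called. On passages 7 and 8 alone, with or without the block, IDO1 became 0.00082 with myricetin, QPRT -0.005 with quercetin and IDO1 -0.0010 between punicalagin and quercetin, where it was -0.046 with the block on all arrays. After a second quantile normalization KYNU became -0.0079 and ACMSD 0.0047 with quercetin, and IDO1 -0.011 between punicalagin and quercetin. When an array was left out, the difference ran from -0.22 to 0.00082 for IDO1 with myricetin. With quercetin it ran from -0.046 to 0.14 for KYNU, from -0.013 to 0.29 for QPRT and from -0.17 to 0.11 for ACMSD. It ran from -0.031 to 0.094 for ACMSD between punicalagin and myricetin. Between punicalagin and quercetin it ran from -0.063 to 0.081 for IDO1 and from -0.16 to 0.12 for ACMSD. Between myricetin and quercetin it ran from -0.17 to 0.042 for KMO and from -0.19 to 0.087 for ACMSD.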
